A study of Mus musculus with 2 samples.

Results

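The genes described here are 8 cation channels, among them channels through which sensory neurons detect heat, cold, irritants and touch. They are Trpv1, Trpv2, Trpa1, Trpm8, Trpm3 and Trpc1 of the transient receptor potential (TRP) family, and Piezo1 and Piezo2. They were taken by symbol from the 31053 genes of both count matrices, all 8 were present, and they were read in 10730 of 10948 barcodes, those with 200 genes or more and a mitochondrial share of UMIs of 10% or less. The data are single-cell RNA sequencing of mouse dorsal root ganglion (DRG) cells, with the ganglia taken at cervical, thoracic and lumbar levels from 2-week-old SWISS mice of both sexes, dissociated, and kept for 3 days in culture before capture. There were 2 libraries, A and B, of this single condition, run on the same 10X chip and without any treatment or mutant arm. The comparisons are therefore between cell groups inside the culture: Calca-high against Calca-low neurons, all neurons against the non-neuronal classes, and fibroblasts and macrophages against glia. The labels name no separate animals or cultures for the libraries. Throughout, n = 2 libraries, and the p-values rest only on the spread between these libraries, which may be technical. The fit pools that spread over all cell groups and moderates it over genes. An SE or p-value can therefore be small where the 2 libraries of a gene lie apart.

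TRP channels are tetrameric cation channels of the plasma membrane. In DRG neurons TRPV1 opens to noxious heat, acid and capsaicin, TRPA1 to electrophilic irritants such as mustard oil, TRPM3 to heat and pregnenolone sulphate, and TRPM8 to cooling and menthol. TRPV2 was first described as a channel of very high heat thresholds and is also prominent in macrophages, and TRPC1 is a broadly expressed subunit that assembles with other TRPC proteins. The PIEZO proteins are trimeric channels opened by membrane tension: PIEZO2 carries most of the rapidly adapting current of touch receptors and proprioceptors, and PIEZO1 acts mainly in vascular, blood and connective tissue cells. Calca encodes the peptide CGRP, which marks the peptidergic class of nociceptors.

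In the GRCm38 annotation (GENCODE vM21), Trpv1 lies at chr11:73234292-73261242 on the plus strand, Trpv2 at chr11:62574486-62600515 on the plus strand, Trpa1 at chr1:14872648-14918862 on the minus strand, Trpm8 at chr1:88277661-88389293 on the plus strand, Trpm3 at chr19:22139046-22995410 on the plus strand, Trpc1 at chr9:95705082-95750375 on the minus strand and Piezo1 at chr8:122481698-122551329 on the minus strand. The Trpm3 span also holds Mir204 and AC124513.1 on the same strand, and Gm26497 overlaps Piezo1 on its strand, so UMIs shared with these transcripts cannot be separated in the matrices. RefSeq promoter windows (GRCm38.p6) were matched for 6 of the 8 genes. The 250 bases before the start site are shown for 3 genes with different cell distributions in the results that follow, Trpv1 of the Calca-high neurons, Trpm8 of a small Calca-low cluster and Piezo1 of the non-neuronal cells, 5′ to 3′ on the strand of the gene and with matches in capitals. Searched on both strands were TATAAA (the TATA box), the core bound by RUNX factors (TGTGGT) and the GC box (GGGCGG), which do not overlap in these windows.
Trpv1: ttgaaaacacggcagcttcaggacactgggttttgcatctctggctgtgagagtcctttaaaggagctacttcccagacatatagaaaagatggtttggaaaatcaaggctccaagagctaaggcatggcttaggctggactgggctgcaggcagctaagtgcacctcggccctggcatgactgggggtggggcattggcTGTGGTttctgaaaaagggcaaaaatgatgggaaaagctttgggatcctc
Trpm8: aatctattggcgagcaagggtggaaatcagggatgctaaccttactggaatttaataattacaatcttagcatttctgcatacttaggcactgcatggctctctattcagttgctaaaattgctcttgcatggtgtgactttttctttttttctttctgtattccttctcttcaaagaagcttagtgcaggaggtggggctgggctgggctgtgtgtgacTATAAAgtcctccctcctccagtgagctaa
Piezo1: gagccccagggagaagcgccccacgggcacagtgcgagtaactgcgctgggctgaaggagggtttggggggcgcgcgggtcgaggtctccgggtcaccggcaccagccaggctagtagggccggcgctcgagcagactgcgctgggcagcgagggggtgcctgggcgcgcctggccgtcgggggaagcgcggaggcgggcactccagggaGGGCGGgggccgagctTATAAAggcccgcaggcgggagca

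The Trpv1 window (chr11:73233899-73234148) held 2 CpG dinucleotides and a TGTGGT match that began at position -50 from the start site. The Trpm8 window (chr1:88306485-88306734) held 1 CpG and a TATAAA match at -30. It lies before a RefSeq start that is inside the GENCODE span of Trpm8 given above, not before the start of that span. The Piezo1 window (chr8:122551330-122551579) held 26 CpG, with a TATAAA match at -24 and a GGGCGG match at -40, and 74.0% of its bases were G or C, against 50.8% for Trpv1 and 42.8% for Trpm8. Over all 32851 RefSeq windows of that length the median was 6 CpG (quartiles 2 and 16) and 52.4% G or C, and TATAAA occurred in 12.4% of them, the RUNX core in 14.0% and the GC box in 32.7%. The Trpv1 and Trpm8 windows were thus CpG-poor and the Piezo1 window CpG-rich. The matches are descriptions of letters, not of binding.

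Cells were grouped by clustering, with 69 genes, the 8 channels among them, held out of the variable genes used, and classes were named neuron-like, glia-like, fibroblast-like and macrophage-like from marker lists; they are called neurons, glia, fibroblasts and macrophages from here on. The kept cells held 39569977 and 38295573 UMIs in libraries A and B, and comprised 809 neurons, 9448 glia, 390 fibroblasts and 83 macrophages. The summed neuron markers reached 13700 CPM (UMIs of the gene divided by all UMIs of the group and scaled to 1000000) in the neurons of each library, against 271 CPM on average in glia and 152 to 156 CPM in fibroblasts. In macrophages they were 121 CPM in A and 731 CPM in B. Glial markers in macrophages were 1080 and 665 CPM, against 3890 CPM on average in glia. Fibroblast markers in macrophages were 1910 and 533 CPM, where glia themselves averaged 2080 CPM. The 83 macrophages thus carried RNA of other classes. Free RNA or doublets can give UMIs to cells that do not transcribe a gene, and their parts were not tested. Summed, 10 neuron markers stood at 1.97% of their neuronal level in glia, 1.12% in fibroblasts and 3.26% in macrophages. Single markers varied, with Prph at 0.959% and Stmn2 at 1.65% in glia. A channel at or below the summed shares is not told apart from such background. Only 7 kept barcodes were shared between the libraries.

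Neurons whose cluster exceeded the Calca level of all neurons together (3230 CPM) were called Calca-high (203 and 160 cells in A and B, clusters N1, N3, N4 and N5), and the others Calca-low (232 and 214 cells, clusters N0, N2 and N6 to N9). Just inside that threshold lay N3 at 3530 CPM and just outside it N9 at 2960 CPM. Clusters N5 (medians of 1387 and 1088 UMIs) and N9 (4435 and 5022 UMIs) were shallow, whereas the other neuron clusters were deeper. Glial markers summed to 2020 and 2030 CPM in N5 and 3710 and 4270 CPM in N9, against 552 CPM over all neurons, so their channel levels are not described one by one. Their cells stay in the group sums, the tests and the likeness of genes. Because the same cells were clustered and then compared, and Calca-high cells differ in many genes by construction, the tests between these neuron groups describe how the channels follow the Calca division.

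Of the 8 channels, Trpv1, Trpa1, Trpm3 and Piezo2 were higher in Calca-high than in Calca-low neurons, Trpm8 and Piezo1 were lower, and Trpv2 and Trpc1 did not pass the test (edgeR quasi-likelihood, adjusted p at most 0.05). Of all 13589 genes tested, 23.3% were called higher and 23.4% lower in this comparison, so a call as such was common. The largest fold change was that of Trpv1. Under DESeq2, Trpv1 and Trpm3 kept their calls and the others did not pass.

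Trpv1, the capsaicin and heat receptor, was a gene of the Calca-high neurons. It was measured at 113 and 108 CPM in the Calca-high neurons of A and B (572 and 396 UMIs), against 15.1 and 8.32 CPM in the Calca-low neurons (99 and 45 UMIs). The libraries of the 2 groups did not overlap, and the log2 fold change was 3.19 (SE 0.13, adjusted p = 6.89e-27), with 2.88 in A alone and 3.69 in B alone. Within the Calca-high neurons it was at 135 and 121 CPM in N1, which lay above 99.2 and 92.6 CPM in N3 and 97.4 and 110 CPM in N4, and N3 and N4 overlapped. N3 is the cluster with Mrgpra3 and Nppb, genes of itch-sensing neurons. Among Calca-low clusters, Trpv1 stood at 36.1 and 34.8 CPM in N8, which carries Mrgprd of the non-peptidergic nociceptors, and at 49.6 and 23.0 CPM in N6. A single cell gave 15 of the 42 Trpv1 UMIs of N6 in A. In N0, the largest Calca-low cluster, Trpv1 was at 10.6 and 3.24 CPM, and N2 and N7 held at most 3 Trpv1 UMIs per library.

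Detection per cell gave the same order when depth was equalised. With 678 of the 809 neurons thinned to 10000 UMIs each, Trpv1 had a UMI in 54.4% and 54.9% of the Calca-high neurons of A and B, against 10.7% and 5.98% of the Calca-low neurons. Without thinning the shares were 61.6% and 62.5% in Calca-high neurons, against 18.1% and 12.1% in Calca-low neurons. Glia, which should lack the gene, had a Trpv1 UMI in 0.226% and 0.298% of cells at median depths of 4916 and 4539 UMIs, against 28459 and 26696 UMIs in Calca-high neurons.

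**Figure D1:**
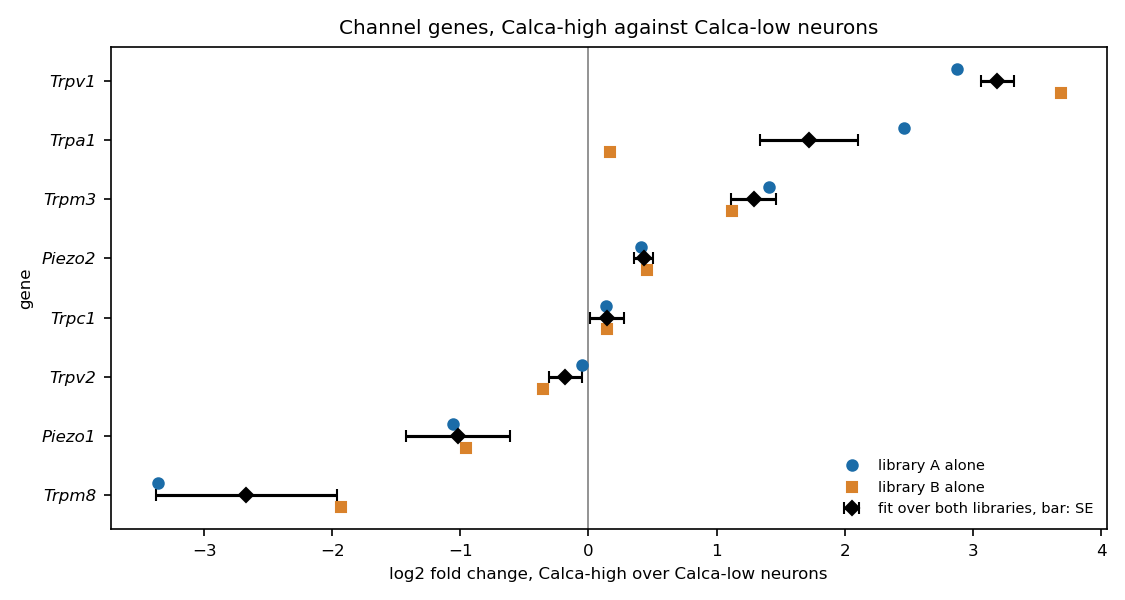
Log2 fold change of each channel, Calca-high over Calca-low neurons, on the horizontal axis: diamonds with bars are the fit over both libraries and its SE, circles library A alone and squares library B alone. Trpv1 lies furthest to the right (3.19), Trpm8 furthest to the left (-2.67), and the libraries of Trpa1 lie apart (2.46 in A and 0.17 in B).

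Trpa1, the receptor for electrophilic irritants, was scarce and uneven. It was at 15.4 and 3.54 CPM in the Calca-high neurons of A and B (78 and 13 UMIs), against 2.75 and 3.14 CPM in the Calca-low neurons (18 and 17 UMIs). The groups did not overlap, but the Calca-high values lay far apart from each other, and that of B was close to the Calca-low values. The log2 fold change of 1.72 (SE 0.38, edgeR adjusted p = 0.000166) was 2.46 in A alone and 0.17 in B alone. A single cell decided much of it: a cell of N1 in A carried 31 of the 72 Trpa1 UMIs of that cluster, and the next richest neurons had 17 and 6. Without that cell the Calca-high neurons of A were at 9.36 CPM (47 UMIs). The edgeR log2 fold change was then 1.17 (adjusted p = 0.0146). Under DESeq2 the value was 1.70 with an adjusted p of 0.212. In all, 56 neurons had a Trpa1 UMI. By cluster, Trpa1 was at 32.4 and 5.99 CPM in N1 and at a mean of 13.6 CPM in N8 (9 and 6 UMIs), and at 5.98 CPM or less in every other neuron cluster of either library. Detection at equal depth did not follow the summed level, with 5.70% and 2.46% of Calca-high neurons against 2.34% and 4.35% of Calca-low neurons.

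Trpm8, the cold and menthol receptor, came almost wholly from a single Calca-low cluster. It had 2 and 3 UMIs in the Calca-high neurons of A and B, against 27 and 17 UMIs in the Calca-low neurons, a ratio of CPM of 0.155 (95% counting interval 0.0481 to 0.391). The log2 fold change was -2.67 (SE 0.71, edgeR adjusted p = 0.00149), with -3.36 in A alone and -1.93 in B alone, and DESeq2 gave -2.62 (adjusted p = 0.106). All 44 UMIs of the Calca-low neurons lay in N6, at 31.9 and 26.1 CPM, where 14 of the 67 cells carried them. The 742 neurons of the other clusters held 5 Trpm8 UMIs, in 5 cells. N6 expressed the peptides Gal (9570 and 5380 CPM) and Tac1 (573 and 464 CPM).

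The Trpm8 cells of N6 were set beside the other cells of that cluster, by counts alone. Their depth ranged from 13282 to 31729 UMIs with a median of 21368. Of the 14, 11 also had a UMI of Pnoc, the precursor of nociceptin, against 9 of the 53 other N6 cells. Trpv2 was present in 11 of them, against 27 of the others, and Trpv1 in 9, against 8 of the others. Piezo2 was low in the whole cluster, present in none of the 14 and in 7 of the others with 15 UMIs. N6 also had macrophage markers in B (summed to 1220 CPM, against 22.5 CPM in A), but 557 of its 561 Lyz2 UMIs came from 2 cells, which held 5 of the 44 Trpm8 UMIs and 6 of the 80 Trpv2 UMIs of the cluster. These features of N6 were chosen after its values were seen and have no test.

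Trpm3, the heat channel opened by pregnenolone sulphate, was higher in Calca-high than in Calca-low neurons, and its level in glia lay above both. It was at 24.3 and 19.4 CPM in Calca-high neurons, against 9.02 and 8.87 CPM in Calca-low neurons. The libraries did not overlap, and the log2 fold change was 1.29 (SE 0.18, edgeR adjusted p = 1.66e-08). At equal depth a Trpm3 UMI was found in 22.2% and 18.9% of Calca-high neurons, against 7.94% and 8.70% of Calca-low neurons. The neuron cluster with most Trpm3 was N4 (32.8 and 26.8 CPM), followed by N1 (24.7 and 21.0 CPM), and the ranges of these neighbours over the libraries did not overlap. Glial markers averaged 456 CPM in Calca-high and 620 CPM in Calca-low neurons, against 3890 CPM in glia. The part of such glial RNA in the neuronal Trpm3 was not tested.

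Trpv2 and Trpc1 were found in both neuron groups, and neither difference passed the test. Trpv2 was at 36.3 and 29.4 CPM in Calca-high neurons, against 37.1 and 37.5 CPM in Calca-low neurons, a log2 difference of -0.18 that did not pass the test (SE 0.13, edgeR adjusted p = 0.249), although the library ranges did not overlap. Trpc1 was at 31.9 and 28.4 CPM in Calca-high neurons, against 28.7 and 25.5 CPM in Calca-low neurons, where the library ranges overlapped (log2 0.14, edgeR adjusted p = 0.401). The misses do not show that the groups were alike. The Calca-low cluster N6 had the highest Trpv2 level of the deep neuron clusters in A (62.7 CPM) and 41.4 CPM in B, where N7 was higher (57.8 CPM). Trpc1 was at 38.7 and 32.9 CPM in N1, against 23.1 and 14.1 CPM in N2 and 12.6 and 20.1 CPM in N8, so N1 lay above both.

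Piezo2, the touch channel, was abundant in both neuron groups. It was at 159 and 162 CPM in Calca-high neurons (807 and 596 UMIs), against 118 CPM in each library of the Calca-low neurons (773 and 639 UMIs). The groups did not overlap, and the log2 fold change of 0.43 (SE 0.07, edgeR adjusted p = 1.72e-06) was small. DESeq2 gave the same size without a call (0.45, adjusted p = 0.0521). The difference varied with the cells included, and was 0.24 (edgeR adjusted p = 0.00385) without clusters N5, N6 and N9. With a mitochondrial limit of 5%, which left 280 neurons, it turned to -0.68 (edgeR adjusted p = 0.00153). At that limit the neurons were clustered anew and the Calca threshold was 1790 CPM, so the groups themselves were redrawn. At equal depth 70.3% and 67.2% of Calca-high neurons had a Piezo2 UMI, against 56.1% and 58.2% of Calca-low neurons.

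The clusters differed in Piezo2 far more than the Calca groups did, and not along the Calca division. The level was 207 and 236 CPM in the Mrgprd cluster N8, 179 and 236 CPM in the Mrgpra3 cluster N3, 184 and 160 CPM in N1, 156 and 143 CPM in N2, 127 and 118 CPM in N0, 91.7 and 81.7 CPM in N7 and 88.0 and 70.2 CPM in N4. N8 and N3 overlapped over the libraries, as did N3 and N1 and N7 and N4, and N6 lay apart at 5.91 and 15.3 CPM. Thus N4, a Calca-high cluster with Trpv1 at the level of N3, had less Piezo2 than any of N0, N2 and N8 on the Calca-low side.

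**Figure D2:**
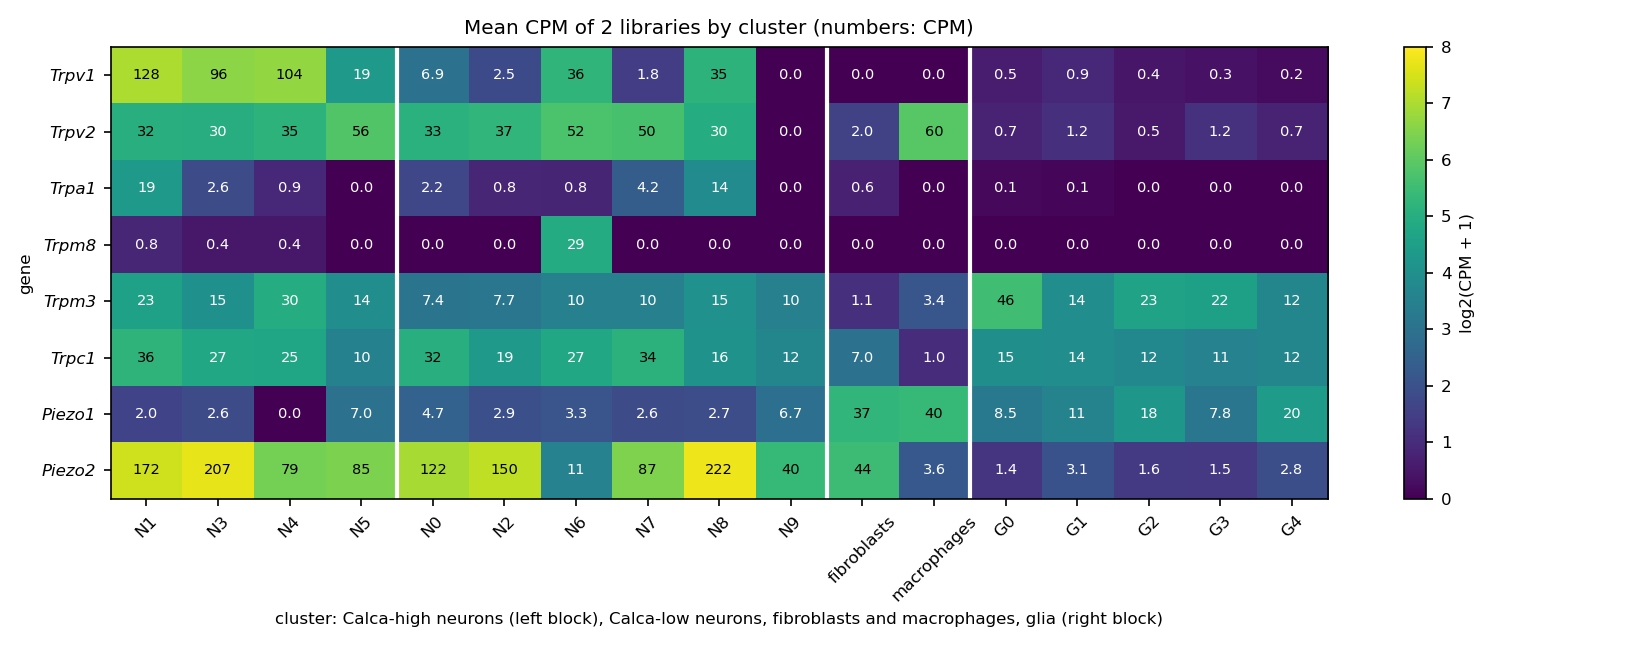
Mean CPM over the 2 libraries of each channel (rows) in every neuron cluster, the fibroblasts, the macrophages and every glial cluster (columns), with colour on a log2(CPM + 1) scale and the CPM printed in each cell. Trpv1 is high in N1, N3 and N4, Trpm8 stands out in N6, and Piezo2 is at its lowest among neuron clusters in N6.

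Piezo1, the channel of vascular and connective tissue cells, was rare in neurons. It had 9 and 7 UMIs in Calca-high neurons (1.77 and 1.91 CPM), against 24 and 20 UMIs in Calca-low neurons (3.67 and 3.70 CPM). The log2 fold change was -1.02 (SE 0.41, edgeR adjusted p = 0.0349), DESeq2 gave -1.0 (adjusted p = 0.0684), and it was -0.29 (adjusted p = 0.851) with the 5% mitochondrial limit. N0 had 4.46 and 4.86 CPM and N4 had no Piezo1 UMI in either library. Piezo1 averaged 12.6 CPM in glia, and Calca-low neurons also held more glial markers (620 CPM, against 456 CPM in Calca-high neurons). The part of glial RNA in these few Piezo1 counts was not tested.

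Against the non-neuronal classes as a whole, 7 of the 8 channels were higher in neurons and Piezo1 was lower, where 38.8% of all genes were called higher and 32.8% lower. This contrast weighs glia, fibroblasts and macrophages equally, which hides single classes that exceeded the neurons. The log2 fold changes were 2.82 for Trpv2 (SE 0.15), 1.49 for Trpm3 (SE 0.29) and -3.45 for Piezo1 (SE 0.21, edgeR adjusted p = 1.91e-21). That of Piezo2 was 4.27 (SE 0.11), with 3.94 in A alone and 6.88 in B alone, where macrophages held no Piezo2 UMI. That of Trpc1 was 2.51 (SE 0.24), with 4.72 in A alone, where macrophages held no Trpc1 UMI, and 2.05 in B alone. Those of the channels at or near 0 outside neurons are given as bounds or ratios. The channels fell into 3 patterns: Trpv1, Trpa1 and Trpm8 had few or no UMIs outside neurons, Piezo2 and Trpc1 were highest in neurons and also present in another class, and Trpv2, Trpm3 and Piezo1 had a non-neuronal class above the neurons.

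**Figure D3:**
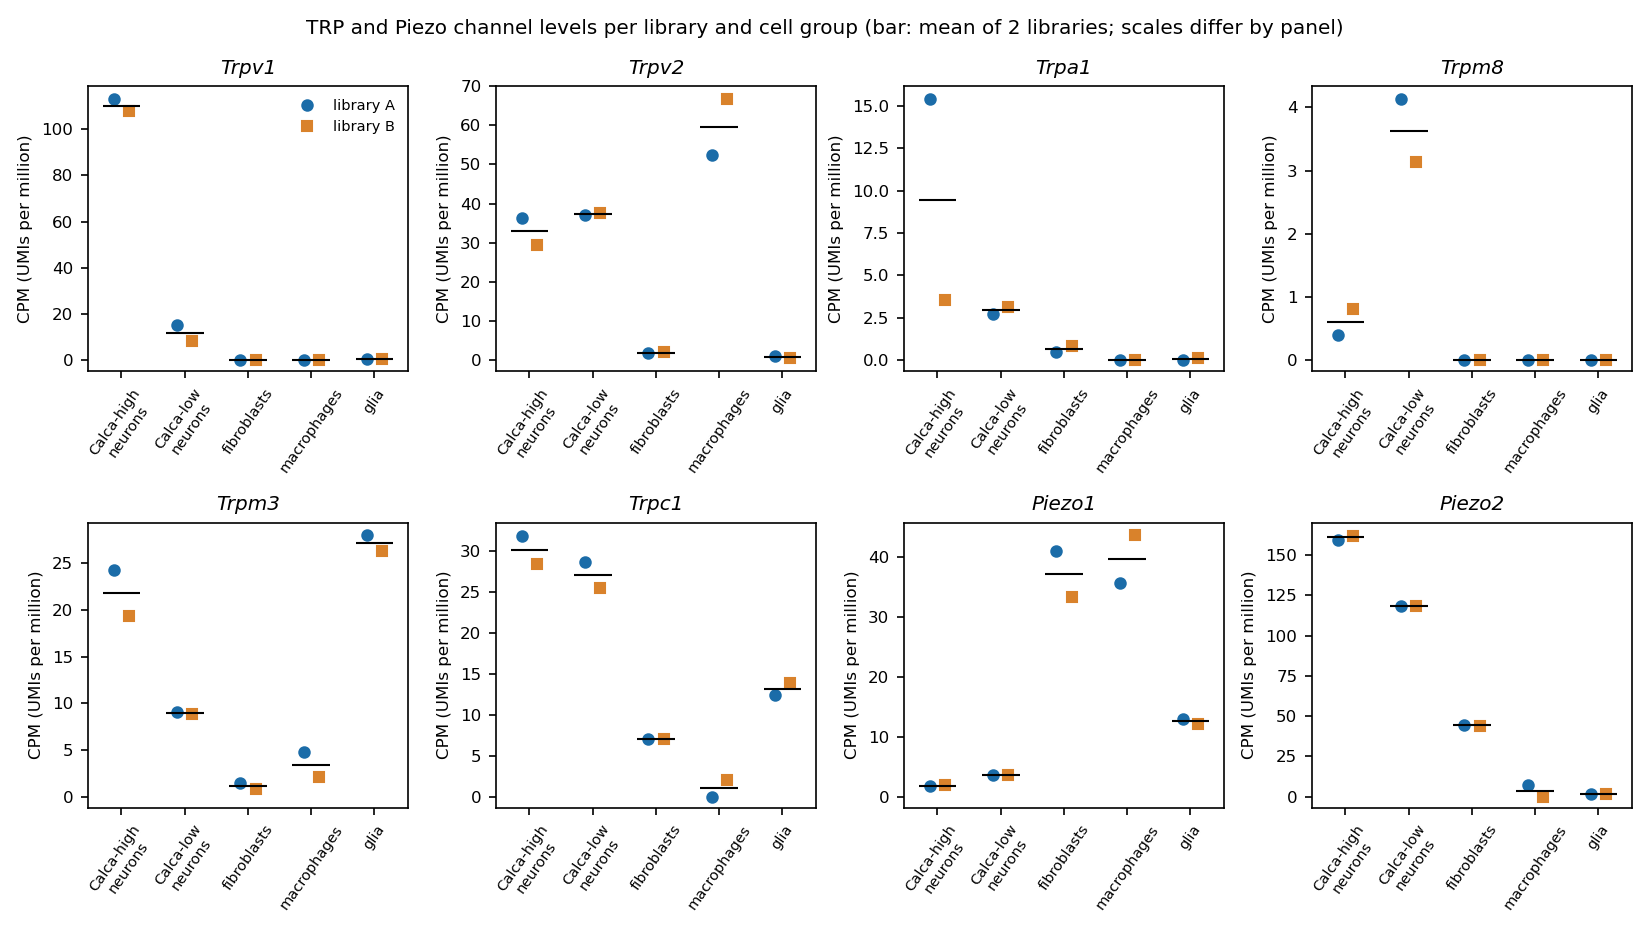
CPM of each channel, 1 panel per gene with its own linear scale, in Calca-high neurons, Calca-low neurons, fibroblasts, macrophages and glia, with circles for library A, squares for library B and a bar for their mean. Piezo1 is at 1.77 to 3.70 CPM in the neuron groups and at 12.2 to 43.7 CPM in the other classes, whereas Trpv1 is at or near 0 outside neurons.

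Trpv1 had 25 UMIs in all glia, which is 0.899% of its neuronal level and under the 1.97% of the neuron markers, and none in fibroblasts or macrophages. Its level in neurons was at least 81.4-fold higher than in fibroblasts and at least 16.1-fold higher than in macrophages, taking 3 counts over each class as the floor (edgeR adjusted p = 2.01e-26 for the contrast). Trpm8 had no UMI in any non-neuronal cell. Neurons were at least 40.8-fold higher than glia and at least 3.59-fold higher than fibroblasts for Trpm8, and the 83 macrophages were too few to give a fold (adjusted p = 0.000232 for the contrast). Trpa1 had 3 UMIs in glia, 3 in fibroblasts and none in macrophages (edgeR adjusted p = 7.37e-09). It stood at 0.953% of its neuronal level in glia, under the neuron markers, and at 10.8% in fibroblasts, above their 1.12%, on those 3 UMIs. The CPM of Trpa1 in neurons was 105 times that of glia (95% counting interval 35.1 to 516) and 9.22 times that of fibroblasts (3.08 to 45.3). Intervals and floors cover counting error only.

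Outside neurons, fibroblasts had the highest Piezo2 level, and they shared the highest Piezo1 level with macrophages. Piezo2 was at 44.3 and 44.1 CPM in fibroblasts (94 and 107 UMIs), against 1.93 and 1.98 CPM in glia (49 and 52 UMIs). The log2 fold change was 4.76 (SE 0.19, edgeR adjusted p = 9.4e-29). The fibroblast level was 32.5% of that of neurons, where the neuron markers stood at 1.12%, and the glial level was 1.44%, under the 1.97% of the neuron markers. With cells thinned to 2000 UMIs, Piezo2 had a UMI in 8.19% and 6.57% of fibroblasts, against 0.481% and 0.286% of glia. Unthinned, at median depths of 12173 and 11187 UMIs in fibroblasts against 4916 and 4539 in glia, the shares were 34.1% and 30.4%, against 1.06% and 0.975%. Piezo1 was at 41.0 and 33.4 CPM in fibroblasts, against 13.0 and 12.2 CPM in glia (log2 1.82, SE 0.15, adjusted p = 1.46e-15). Fibroblast and glial libraries overlapped for neither gene.

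Of the TRP channels, Trpm3 and Trpc1 were lower in fibroblasts than in glia, and Trpv2 was higher. With Piezo1 and Piezo2 this made 3 channels higher and 2 lower, where 26.2% of all genes were called higher and 30.2% lower. Trpm3 had 3 and 2 UMIs in fibroblasts, against 712 and 692 UMIs in glia (27.2 ± 1.21 CPM, SD, n = 2), with a log2 fold change of -4.33 (SE 0.36, edgeR adjusted p = 9.53e-16). Trpc1 was at 7.08 and 7.01 CPM in fibroblasts, against 12.4 and 13.9 CPM in glia (log2 -0.63, SE 0.26, adjusted p = 0.0319), a call that DESeq2 (-0.49, adjusted p = 0.207) and RLE scaling (-0.49, adjusted p = 0.108) did not keep. Trpv2 had 4 and 5 UMIs in fibroblasts (1.89 and 2.06 CPM), against 1.02 and 0.608 CPM in glia (log2 1.54, SE 0.62, adjusted p = 0.0297), and did not pass at the 5% mitochondrial limit (1.45, adjusted p = 0.166).

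Macrophages were the non-neuronal site of Trpv2. It was at 52.3 and 66.7 CPM in macrophages (22 and 32 UMIs), against 1.02 and 0.608 CPM in glia (26 and 16 UMIs). The log2 fold change was 6.37 (SE 0.37, edgeR adjusted p = 4.83e-21), and with cells thinned to 2000 UMIs a Trpv2 UMI was found in 21.6% and 13.0% of macrophages, against 0.206% and 0.102% of glia. Unthinned, the shares were 45.9% and 54.3% of macrophages, against 0.588% and 0.318% of glia. The macrophage level was 168% of that of neurons, where the neuron markers stood at 3.26%, and in glia it was 2.28%, close to the 1.97% of the neuron markers. Piezo1 was at 35.7 and 43.7 CPM in macrophages (15 and 21 UMIs), against 13.0 and 12.2 CPM in glia (log2 1.85, SE 0.30, adjusted p = 1.06e-06), a level that overlapped that of fibroblasts. Both genes were thus higher in macrophages, and Trpm3 and Trpc1 were lower, where 13.2% of all genes were called higher and 22.1% lower.

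The lower calls rest on very few macrophage UMIs. Trpm3 had 3 UMIs there, a CPM 0.123 times that of glia (95% counting interval 0.0253 to 0.359; log2 -2.83, edgeR adjusted p = 5.86e-05). Trpc1 had 1 UMI, in B, at 0.0842 times the glial CPM (0.00213 to 0.471; adjusted p = 0.00304, and 0.0877 under DESeq2). Piezo2 had 3 UMIs, all in 1 cell of A, and stood at 1.71 times the glial CPM with an interval of 0.346 to 5.13. That interval takes the UMIs as independent, which those of 1 cell are not. Pooled over the libraries, Piezo2 was at 2.45% of its neuronal level, against 3.26% for the neuron markers. The libraries differed, since A held all the Piezo2 (7.13 CPM) but B most of the neuron markers (731 CPM, against 121 CPM in A). The pooled shares therefore do not settle whether this Piezo2 was background. The glial, fibroblast and neuron markers found in these macrophages are given above, and the part of such RNA in the macrophage values was not tested.

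Glia were the main site of Trpm3 in the culture, and their clusters differed in it. Its level over all glia was 187% of that of neurons. The glial cluster G0, led by Ccnd2, Apoe and Ndrg2, had 48.4 and 43.1 CPM of Trpm3. G2, whose leading genes are replication histones, had 23.9 and 22.8 CPM, and the mitotic cluster G3 had 23.1 and 21.4 CPM, so these neighbours overlapped. G1, led by Tgfbi and Igfbp5, had 12.4 and 16.2 CPM and the cycling cluster G4 had 11.8 in each library. With cells thinned to 2000 UMIs, Trpm3 had a UMI in 9.80% and 7.82% of G0 cells, against 1.85% and 3.1% of G4 cells. Fabp7, a marker of satellite glia and immature Schwann cells, was at 1340 and 1310 CPM in G0, against 216 and 184 CPM in G4, and at 1830 and 1650 CPM in G3.

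Piezo1 had another order over the same glial clusters. G4 had 20.5 and 19.6 CPM and G2 had 17.4 and 18.5 CPM, and G1 had 12.9 and 8.90 CPM. G0 (8.16 and 8.78 CPM) and G3 (8.94 and 6.62 CPM) were lowest and overlapped. G0, with most Trpm3, thus had less Piezo1 than G2 and G4 in both libraries. Trpc1 ranged from 8.6 to 16.4 CPM over the glial clusters and libraries, and stood at 46.1% of its neuronal level over all glia. These cluster levels are descriptions without a test.

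Neurons often carried more than 1 of the channels. Of the 678 neurons thinned to 10000 UMIs, 88 had no UMI of any of the 8, 225 had 1 of them, 245 had 2, 91 had 3, 24 had 4 and 5 had 5. Piezo2 had a UMI in 115 of the 187 neurons with Trpv1, or 61.5%, and in 61.9% of all 678 neurons, close to its share of the Trpv1 neurons. Trpv1 had a UMI in 10 of the 25 Trpa1 neurons (8 of 14 in A and 2 of 11 in B), in 37 of the 91 Trpm3 neurons and in 4 of the 12 Trpm8 neurons. These shares were 40.0% (57.1% in A and 18.2% in B), 40.7% and 33.3%. Over all 678 neurons the share with Trpv1 was 27.6% (29.3% in A and 25.5% in B). Of those 12 Trpm8 neurons, none had Piezo2. A UMI missing at this depth does not show that a transcript was absent, and these counts carry no test.

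Of the 22 remaining TRP channels, 10 had enough counts to be tested. None was lower in Calca-high neurons and 5 were higher, where 23.3% of all genes were higher and 23.4% lower, with a median log2 difference of 0.44 against -0.02 over all genes tested. None of those 5 had both 20 CPM or more in a neuron group and 1 sign in both libraries, so they are not named. In neurons against non-neuronal classes 3 were higher and 3 lower (38.8% and 32.8% of all genes). Among those lower were Pkd2, which encodes polycystin-2 of primary cilia (8.08 to 11.3 CPM over the neuron libraries, against 19.0 to 54.7 CPM in the non-neuronal ones, log2 -2.01, SE 0.20, edgeR adjusted p = 8.64e-13), and Trpm7, the channel kinase of magnesium uptake (log2 -0.97, SE 0.13, adjusted p = 1.54e-09). In fibroblasts against glia 4 were higher and 1 lower (26.2% and 30.2% of all genes), and in macrophages against glia 2 were higher and 2 lower (13.2% and 22.1%), with Pkd2 among the higher in fibroblasts (log2 0.45) and among the lower in macrophages (log2 -0.99).

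Other genes of mechanosensing had their own distributions. Of 15, 14 were tested, and 7 were higher and 3 lower in Calca-high neurons (23.3% and 23.4% of all genes), with a median log2 difference of 0.48 against -0.02 over all genes. The mechano-gated potassium channels Kcnk10 (TREK-2) and Kcnk2 (TREK-1) were higher, at 44.0 and 52.1 CPM in Calca-high against 7.64 and 5.92 CPM in Calca-low neurons for Kcnk10 (log2 2.78, SE 0.18, edgeR adjusted p = 2.71e-19) and at 57.4 and 72.5 CPM against 15.4 and 10.7 CPM for Kcnk2. Tmem150c (tentonin) was higher (log2 1.13, but -0.17 at the 5% mitochondrial limit), and Stom, which encodes stomatin and binds acid-sensing and PIEZO channels, was lower (9.46 and 8.72 CPM in Calca-high against 23.4 and 22.2 CPM in Calca-low neurons, log2 -1.34). In neurons against non-neuronal classes 8 were higher and 4 lower (38.8% and 32.8% of all genes). Mdfic, which encodes an auxiliary subunit of PIEZO channels, was among the lower and ran the same way as Piezo1: 1.09 to 6.84 CPM in the neuron libraries, against up to 30.0 CPM in glia and 66.4 to 100 CPM in fibroblasts and macrophages (log2 -4.32, SE 0.16, adjusted p = 1.75e-30). Fibroblasts had 5 higher and 1 lower than glia (26.2% and 30.2% of all genes), Kcnk2 with the largest fold change of those named (38.2 and 47.4 CPM in fibroblasts against 6.37 and 6.12 CPM in glia, log2 3.05), and Tmem63b the lower (log2 -1.20). Macrophages had 3 higher and 1 lower than glia (13.2% and 22.1% of all genes).

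Of 24 receptors, kinases and partner proteins that regulate TRP channels, 21 were tested, and 14 were higher, 2 lower and the others not called in Calca-high neurons, where 23.3% of all genes were higher and 23.4% lower. The median log2 difference was 1.21, against -0.02 over all genes. Tmem100, which encodes an adaptor between TRPA1 and TRPV1, was at 124 and 133 CPM in Calca-high against 3.51 and 2.03 CPM in Calca-low neurons (log2 5.47, SE 0.16, edgeR adjusted p = 4.64e-33). The itch receptor Mrgpra3 had a log2 fold change of 5.50, the cannabinoid receptor Cnr1 of 3.11, the prostaglandin E2 receptor Ptger1 of 1.96, and Pirt, a phosphoinositide-binding partner of TRPV1 and TRPM8, of 1.63 (954 and 900 CPM in Calca-high against 306 and 288 CPM in Calca-low neurons). In neurons against non-neuronal classes 17 were higher and 1 lower (38.8% and 32.8% of all genes), with a median of 3.59 against 0.08 over all genes. In fibroblasts against glia 9 were higher and 4 lower (26.2% and 30.2% of all genes), with a median of 0.59 against -0.10, and in macrophages against glia 2 were higher and 3 lower (13.2% and 22.1%), with a median of -1.12 against -0.39. Among those lower in both fibroblasts and macrophages were Prkce, Plcb3 and Gnaq, the signalling proteins downstream of Gq-coupled receptors. Prkcd was called higher in both, but its fibroblast libraries (22.6 and 20.6 CPM) overlapped those of glia (18.4 and 21.0 CPM). Its log2 fold change in fibroblasts was 0.40 (SE 0.17, edgeR adjusted p = 0.039). Of these lists, no count is read as particular to them.

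The genes whose levels followed each channel most closely were taken from the 10 neuron, 5 glial, fibroblast and macrophage clusters of both libraries, 34 points over which clusters share their library and classes share depth, among 10216 candidate genes. By Pearson's r on that scale, Trpv1 was followed by Jph4 (0.94), Lin7b (0.93) and Hcfc1r1 (0.93), Trpv2 by Akirin1 (0.93), and Trpm8 by Pnoc (0.93), the gene noted above in the Trpm8 cells, and by Calb1 (0.86). Piezo2 was followed by 5033406O09Rik (0.91), Trnp1 (0.90) and Ank2 (0.90), Piezo1 by Scpep1 (0.86) and Trpc1 by Map3k12 (0.91). For Trpa1 the closest gene was Rasgrp1 (0.80). Ranking asked for 20 CPM or more in a cluster, which Trpa1 reached only in N1 (21.1 CPM pooled over the libraries). There 1 cell held 31 of its 82 UMIs. Without that cell N1 was at 18.9 CPM in A, beside 5.99 CPM in B, so Trpa1 would not have been ranked. These coefficients are descriptions. Those of Trpm8 rest mainly on N6, where nearly all its UMIs lay, so that of Pnoc repeats what was noted in N6.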

How the data were processed

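DRG cells of the 2 libraries were captured as single cells and the deposited matrices hold raw UMI counts per gene and barcode, which the authors made with Cell Ranger 3.0.2 against the mm10 reference (matrix header version 3.1.0). Files list filtered barcodes, and the thresholds that the study states for mitochondrial share and genes were applied to them (98.0% of barcodes kept, a number of cells that differs from that of the study). Doublets were kept in the main analysis. Cells were normalised, reduced to 20 principal components and clustered in Seurat 5.3.0 (resolution 0.18 for all cells and glia, 0.5 for neurons), so cell names are rebuilt and may differ from those of the study.

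Counts were summed per library and group and tested with edgeR 4.0.16 (quasi-likelihood, TMM, 13589 genes after filtering, 4 residual degrees of freedom, and a block for the library), with Benjamini-Hochberg adjustment over all genes tested and calls at adjusted p of 0.05 or less. Each SE was derived from the edgeR test, as the absolute log2 fold change divided by the square root of its F statistic. It therefore carries no information beyond the fold change and its p-value. The fit was tested on simulated data. The libraries differ in depth as given in the report, and counts of 2 libraries within a group differed beyond sampling noise (chi-square per degree of freedom of 1.45 to 2.02). Both libraries hold all groups, so a shared library number pairs them by design. Alternatives were DESeq2 1.42.0, RLE scaling, no count filter, no block, other mitochondrial limits, resolutions, Calca definitions and thinning depths, and each library left out. Leaving out N5, N6 and N9, or the neuron richest in Trpa1, was chosen after seeing the data. A split of Calca-low neurons by Nefh was formed but not tested, since its Nefh-high side held 10 and 18 cells.

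All 8 channels are named. Of the other TRP, mechanosensing and regulator lists, up to 6 genes per comparison are named, those with the largest absolute log2 fold change among called genes at 20 CPM or more with 1 sign in both libraries. The 3 genes most like each channel follow Pearson's r over clusters, and some genes that these rules name are not reported here. The channels and lists were chosen with earlier results of these data known. Values were computed in Python 3.11.15 and R 4.3.3.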

Additional observations from a re-analysis of the deposited data

How the results depend on the processing

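Of 228 recalculated channel tests over 25 results, 216 kept direction and side of the threshold, 9 no longer passed and 3 turned sign. Those were Trpc1 between Calca-high and Calca-low neurons, which was not called (-0.08 with Calca-high defined by cell and -0.22 at the 5% mitochondrial limit), and Piezo2 (-0.68 at the 5% limit). Of 399 tests of the list genes, 382 stayed, 14 no longer passed and 3 turned sign at the 5% limit: Tmem150c (-0.17), Tmem120a (0.02) and Asic2 (-1.40). That limit left 280 neurons, which were clustered anew with a Calca threshold of 1790 CPM. It called 2216 genes between Calca-high and Calca-low neurons (1134 higher and 1082 lower), against 6355 (3172 and 3183) in the main analysis, and the cause was not tested. Trpm8 had too few counts to be tested there or without N5, N6 and N9. A neuron resolution of 0.3 gave the same neuron clusters as the main analysis. Its tests, counted among those that stayed, could therefore not differ.

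Without the library block the Calca comparison called 6426 genes and no call of a channel changed. Leaving out a library leaves the value of the other, with no residual degrees of freedom and no test. In the 25 recalculated results the channels kept their signs in each library alone. Left out of these for low counts were Trpv1, Trpa1 and Trpm8 in fibroblasts and in macrophages against glia, and Piezo2 in macrophages against glia. The sign of that Piezo2 value differed between the libraries, with 1.98 in A alone and -6.9 in B alone. Scaling moved the split of calls: fibroblasts against glia had 3567 higher and 4107 lower, 3851 and 2742 under DESeq2 and 4212 and 3320 with RLE, and macrophages against glia had 1796 and 3000, 2376 and 1619, and 2255 and 2079. The median of all genes in the macrophage comparison was -0.39, -0.01 under DESeq2 and -0.16 with RLE. Of 216 recalculated CPM values 54 moved by more than the spread between libraries, as did 82 of 120 shares at other thinning depths. Counts under 10 UMIs limit Trpm8 and Piezo1 in Calca-high neurons, Trpa1 outside neurons, Trpv2 and Trpm3 in fibroblasts, and Trpm3, Trpc1 and Piezo2 in macrophages.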

Other observations

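Atf3, a transcription factor induced by nerve injury, differed between the neuron clusters in which the channels differed. It averaged 26.1 ± 11.4 CPM in N1 (SD, n = 2) and was at 15.7 and 24.5 CPM in N3 and 81.1 and 43.4 CPM in N4, the Calca-high clusters with most Trpv1. Among Calca-low clusters it was at 59.5 and 73.2 CPM in N8, which had the highest mean Piezo2, and at 694 and 630 CPM in N0, 771 and 1080 CPM in N2, 485 and 369 CPM in N6 and 765 and 935 CPM in N7. The gene was chosen after its values were seen, and its part in the channel levels was not tested.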
